A study of Mus musculus with 2 samples.

Results

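Solute carrier (SLC) genes encode membrane proteins that move amino acids, sugars, metals, ions, nucleotides and vitamins across the plasma membrane and organelle membranes. They are numbered by family, and members of a family mostly share a substrate class. In macrophages they supply arginine, cystine and glucose, move iron and zinc across phagosomal and other membranes, and connect the mitochondrion with the cytosol.

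The genes described here were the rows of the deposited table whose symbol has the form Slc, a family number, a letter series and a member number, and whose mean over both libraries was at least 1 FPKM (fragments per kilobase, a level scaled to transcript length and library depth). The members were thus chosen by their FPKM, so that a gene under the limit in both libraries could not appear. Of 288 genes with such a symbol among 24034 listed genes, 154 (53.5%) were kept. The other 134 were under the limit, of which 27 were at 0 in both libraries. By the same limit 10214 listed genes (42.5%) were expressed, and these are called all genes below. The 154 members came from 38 of 48 SLC families, and all 154 are annotated as protein-coding. Just inside the limit were Slc16a13, Slc7a11 and Slc4a7, with means of 1.03, 1.03 and 1.09 FPKM. Just outside were Slc30a2, Slc10a3 and Slc38a9, with means of 0.99, 0.91 and 0.85 FPKM.

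The cells were RAW264.7, a mouse monocyte/macrophage line, and their poly(A) RNA was sequenced. The first library came from cells given SFRS8 siRNA, per its label, and the second from a negative control. Both titles carry a 5 d mark whose starting point is not stated. SFRS8 was the former symbol of Sfswap, which regulates splicing. Each group has 1 library, so that replicate error is unknown and no test was run. Differences are siRNA-labelled minus control values of log2(FPKM + 1), which understate the change of low genes. Ratios are of counts per library total, siRNA-labelled over control, with 95% exact limits that cover counting error only.

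Sfswap itself stood at 3.38 FPKM in the siRNA-labelled library and 2.92 FPKM in the control library. The targeted gene was thus not lower, and directions below refer to the library carrying that label. Counts summed to 55411201 (siRNA-labelled) and 54847367 (control). All 10 macrophage markers were measured in both, from Lyz2 (lysozyme) at 13998 and 15652 FPKM to Ptprc (CD45) at 2.95 and 2.13 FPKM. Markers of heart muscle held 14022 counts in the siRNA-labelled library against 851 in the control, with 12 of 12 higher and 4 at 0 in the control. Red blood cell markers held 423 against 6 counts, with 4 of 5 at 0 in the control, and fibroblast markers 323 against 16 counts, with 4 of 6 at 0 there. Their part in the differences below was not tested. In bulk RNA, fewer cells of a type and less RNA per cell cannot be told apart.

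The promoters of 4 members are shown because they belong to the members at either end of the differences and to the 2 members whose regulation is best known in textbooks. Slc25a45 was the highest member and Slc39a9 the lowest. Slc7a11 is a known target of the transcription factor ATF4, and Slc30a1 of the zinc-sensing factor MTF1. Each runs 5′ to 3′ from 250 bases before to 50 bases after the RefSeq start on GRCm38.p6. Capitals mark matches on either strand to the motifs searched. The GC box was read as GGGCGG and the CCAAT box as CCAAT. The ETS motif was read as CCGGAAG and the E-box as CACGTG. The ATF4 element was read as TGATGNAA, and the core of the metal response element as TGCACNC or TGCGCNC. No 2 matches overlapped in these 4 windows.
Slc25a45, chr19:5877572-5877871, plus strand: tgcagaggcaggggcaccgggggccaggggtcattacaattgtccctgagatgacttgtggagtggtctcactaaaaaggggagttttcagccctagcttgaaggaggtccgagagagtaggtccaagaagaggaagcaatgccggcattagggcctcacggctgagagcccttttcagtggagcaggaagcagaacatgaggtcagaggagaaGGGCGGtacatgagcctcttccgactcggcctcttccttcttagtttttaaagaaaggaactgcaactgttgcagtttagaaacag
Slc39a9, chr12:80643965-80644264, plus strand: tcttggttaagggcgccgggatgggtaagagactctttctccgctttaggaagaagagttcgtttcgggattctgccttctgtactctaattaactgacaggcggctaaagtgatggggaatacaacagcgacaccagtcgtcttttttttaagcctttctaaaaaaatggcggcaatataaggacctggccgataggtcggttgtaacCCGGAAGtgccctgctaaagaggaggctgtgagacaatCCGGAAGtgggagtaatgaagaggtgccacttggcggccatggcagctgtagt
Slc7a11, chr3:50443564-50443863, minus strand: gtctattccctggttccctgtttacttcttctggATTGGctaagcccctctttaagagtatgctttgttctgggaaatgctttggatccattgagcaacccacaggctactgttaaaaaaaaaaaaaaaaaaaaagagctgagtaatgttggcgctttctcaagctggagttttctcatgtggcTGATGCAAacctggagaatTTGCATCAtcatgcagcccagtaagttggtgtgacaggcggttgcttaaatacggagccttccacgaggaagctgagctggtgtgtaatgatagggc
Slc30a1, chr1:191906531-191906830, plus strand: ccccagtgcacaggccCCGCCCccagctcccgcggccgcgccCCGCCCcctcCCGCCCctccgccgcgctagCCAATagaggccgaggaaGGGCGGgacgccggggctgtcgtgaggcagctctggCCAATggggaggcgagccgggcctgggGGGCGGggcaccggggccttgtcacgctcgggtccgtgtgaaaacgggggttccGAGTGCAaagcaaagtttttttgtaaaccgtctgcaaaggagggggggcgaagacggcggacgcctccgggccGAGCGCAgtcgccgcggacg

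The Slc25a45 window held 1 GC box, and that of Slc39a9 held 2 ETS matches facing the same way. The Slc7a11 window held 2 ATF4 elements in opposite orientation and a CCAAT box. The Slc30a1 window, at 73% GC, held 5 GC boxes, 2 CCAAT boxes and 1 match to each metal response core. Over all 27025 RefSeq promoters (1 per symbol), 35.9% held a GC box, 37.9% a CCAAT box, 9.12% the ETS match and 7.24% the E-box. The ATF4 element was in 4.06%, and the metal response cores were in 12.4% (TGCACNC) and 15.5% (TGCGCNC). Of the 154 members 119 had a RefSeq promoter, and 73.9% of these held a GC box, against 67.8% of expressed genes with a promoter. The E-box was in 15.1% of member promoters against 11.1%, and the ATF4 element in 3.36% (4 of 119) against 2.10%. TGCACNC was in 14.3% against 12.1%. Lower among members were the CCAAT box (35.3% against 39.6%), TGCGCNC (25.2% against 28.2%) and the ETS match (21.0% against 21.5%). A match of letters is a description and not a binding site.

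No member differed by 2-fold or more between the libraries. Of all genes, 1.18% passed that limit upward in the siRNA-labelled library and 0.783% downward. At 1.5-fold, 2 members were higher, against 4.91% of all genes, and 2 were lower, against 2.18%. These counts depend on the pseudocount of 1, since a pseudocount of 0.1 gave 7 higher (against 10.3% of all genes) and 4 lower (against 3.19%). With the pseudocount of 1 the higher members were Slc25a45 and Slc25a44 and the lower were Slc39a9 and Slc25a51. At a limit of 1.2-fold, chosen after the values were seen, 29 of 154 members were higher and 7 of 154 were lower. Both were smaller shares than the 28.6% and 7.22% of all genes. The remaining 118 members (76.6%) differed by less, against 64.2% of all genes. By family, the 29 higher members included 10 of 33 in SLC25, 4 of 16 in SLC35, 4 of 6 in SLC30 and 2 of 6 in SLC16. The shares in SLC25 and SLC35 were near the 28.6% of all genes. The member median was 0.05 against 0.11 over all genes, and 95 members (61.7%) were above 0, against 66.9%. Relative to the median of all genes, which centring would move by 0.11, the member median was -0.06 and 60 members lay above it. The median level of members, 6.22 FPKM, was close to the 6.17 FPKM of all genes.

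**Figure D1:**
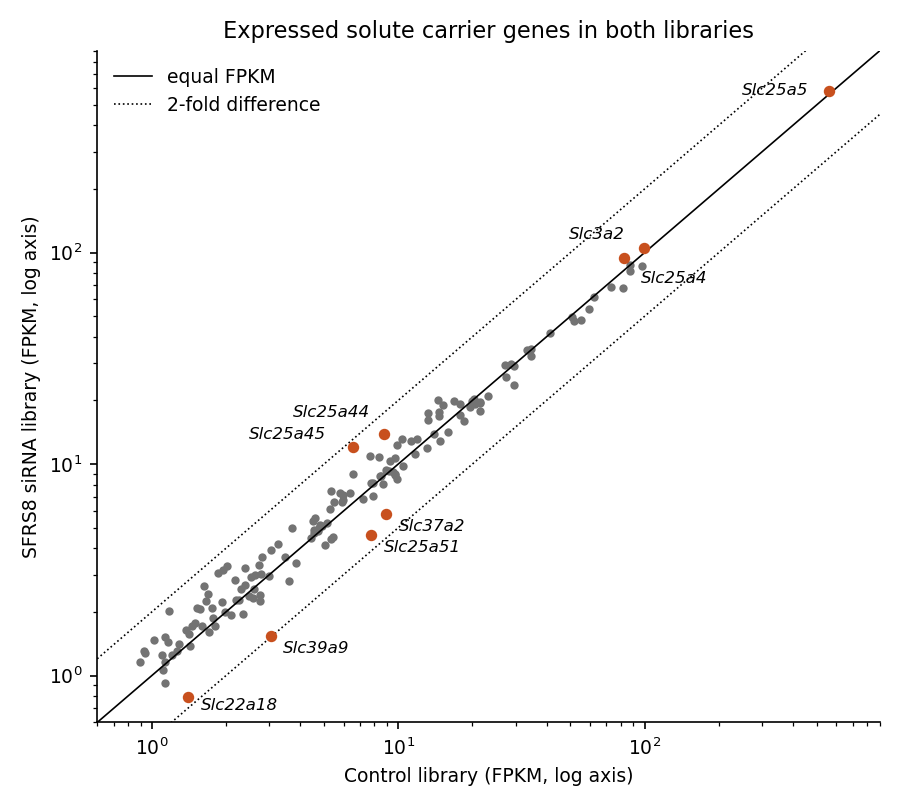
FPKM of the 154 expressed solute carrier genes in the SFRS8 siRNA library (vertical, log axis) against the control library (horizontal, log axis), 1 point per gene, with lines of equality and of 2-fold difference. No point lies beyond the dotted lines. Among the labelled genes, drawn as orange points, Slc39a9 (1.53 against 3.04 FPKM) and Slc25a45 (11.99 against 6.53 FPKM) lie nearest to those lines.

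The most abundant member was Slc25a5 (ANT2), which exchanges ADP for ATP across the inner mitochondrial membrane. It stood at 581 FPKM in the siRNA-labelled library and 560 FPKM in the control, 22.1% and 21.5% of the summed FPKM of all members. However, it shares 71.5% of its longest transcript with Gm5560, so reads may be assigned to either gene. Next came Slc3a2 (CD98, the heavy chain of several amino acid transporters) at 105 against 99.3 FPKM. The other 8 of the 10 most abundant were Slc25a39, Slc25a4, Slc25a3, Slc25a1, Slc39a7, Slc48a1, Slc6a12 and Slc25a11. Of 26 members that averaged 20 FPKM or more, 8 were above 0, with a median of -0.06, against -0.005 over the 2292 genes at such levels. Of the 72 members under 5 FPKM, 52 were above 0, with a median of 0.08, against 0.17 over all genes at such levels.

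Mitochondrial carriers of family SLC25 were the most numerous, with 33 of 43 listed genes expressed, and they held both the highest and 1 of the lowest members. Of the 33, 24 were above 0 and the median was 0.15, or 0.04 relative to the median of all genes. Slc25a45, an inner membrane carrier, stood at 11.99 FPKM in the siRNA-labelled library and 6.53 FPKM in the control, from 2034 and 1100 counts. The ratio of 1.83 (1.58 to 2.13) was the highest of any member. Slc25a44, which imports branched-chain amino acids, stood at 13.9 against 8.79 FPKM, a ratio of 1.58 (1.40 to 1.77). In the other direction Slc25a51, the mitochondrial NAD carrier, stood at 4.597 against 7.75 FPKM, from 1557 and 2597 counts. Its ratio was 0.59 (0.52 to 0.67). Neither Slc25a45 nor Slc25a44 shares transcript sequence or exons with another annotated gene. Of the Slc25a51 transcript 2.82% is shared, and its exons overlap a listed gene on the same strand, so reads may be assigned to either gene.

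Nucleotide carriers were also among the higher SLC25 members. Slc25a33, a pyrimidine nucleotide carrier, stood at 17.5 against 13.2 FPKM, although 14.9% of its exons overlap Gm13068 on the opposite strand. Slc25a24 and Slc25a23, which exchange ATP-Mg for phosphate under control of calcium, lay on opposite sides. Slc25a24 stood at 8.98 against 6.58 FPKM (ratio 1.36, 1.18 to 1.57) and Slc25a23 at 23.8 against 29.6 FPKM (0.80, 0.76 to 0.85). Slc25a46, an outer membrane protein that acts in mitochondrial dynamics, stood at 2.66 against 1.62 FPKM.

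Carriers that supply oxidative phosphorylation lay close to the member median as a list. The phosphate carrier Slc25a3 stood at 87.0 against 87.3 FPKM, and the 7 measured adenine nucleotide and phosphate carriers had a median of 0.05, with 5 above 0. Slc25a4 (ANT1), the adenine nucleotide translocase most abundant in heart and muscle, stood at 94.4 against 82.5 FPKM, a ratio of 1.14 (1.09 to 1.201), in the library with the heart muscle markers. A list of citrate, malate, aspartate, glutamate and oxoglutarate carriers had a median of -0.001 over 7 measured members, 3 of them above 0. Those 7 also included the carnitine carrier Slc25a20, which was above 0 at 4.98 against 4.77 FPKM. In the same list the citrate carrier Slc25a1 stood at 81.9 against 87.4 FPKM and the glutamate carrier Slc25a22 at 4.52 against 5.45 FPKM. The aspartate/glutamate carrier Slc25a13 stood at 5.57 against 4.599 FPKM. Mitoferrin-1 (Slc25a37), which brings iron into the mitochondrion and is most abundant in erythroid cells, stood at 13.1 against 10.3 FPKM (1.27, 1.16 to 1.38), in the library with the red blood cell markers. Of 3 listed SLC markers of red blood cells, 2 were higher there. These were Slc25a37, from 4827 against 3774 counts, and Slc14a1, from only 8 against 0 counts (lower limit of the ratio 0.19). The red blood cell markers together held 423 against 6 counts. Slc25a38 was lower, at 8.03 against 8.64 FPKM (0.93, 0.80 to 1.08). Slc25a39, which imports glutathione, stood at 86.5 against 97.4 FPKM.

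**Figure D2:**
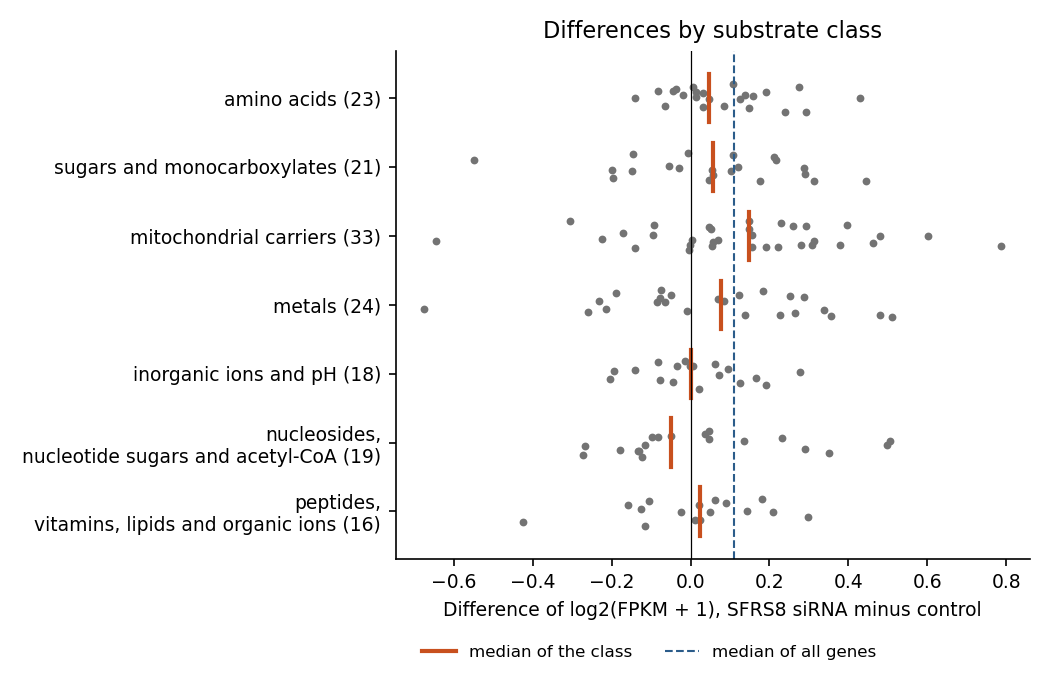
Difference of log2(FPKM + 1), SFRS8 siRNA minus control, for every member (grey points), in rows by substrate class with the number of members in brackets. Orange bars are class medians, from -0.05 for nucleosides, nucleotide sugars and acetyl-CoA to 0.15 for mitochondrial carriers, and the dashed line is the median of all genes at 0.11.

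The families that carry zinc lay apart in their medians, though the ranges of their members overlapped. Most SLC30 proteins (ZnT) move zinc out of the cytosol, into organelles or out of the cell, and SLC39 proteins (ZIP) mostly move it into the cytosol. Of 6 SLC30 members, 5 were above 0 and the same 5 were above the median of all genes, with a family median of 0.32. Of 10 SLC39 members, 4 were above 0, with a median of -0.13. Members ran from -0.008 to 0.51 in SLC30 and from -0.67 to 0.34 in SLC39. Centred on all genes the medians were 0.21 and -0.24, a downward shift that could not change the sign of the SLC39 median. On the CPM scale, which rescales the same 2 libraries, the medians were 0.42 and -0.14. After adjustment for the GC content of the transcript they were 0.18 and -0.03, against 0.11 over all genes. The SLC30 transcripts had a median GC content of 43.9% and the SLC39 transcripts of 53.6%. All genes of 42.1% to 44.6% GC had an unadjusted median of 0.29, and those of 52.1% to 53.8% GC of 0.04.

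Among SLC30 members, Slc30a4, which loads endosomal and lysosomal vesicles, stood at 3.31 FPKM in the siRNA-labelled library and 2.03 FPKM in the control (ratio 1.63, 1.34 to 1.99). Slc30a9 stood at 2.03 against 1.17 FPKM (1.73, 1.46 to 2.05). Slc30a1, the plasma membrane zinc exporter whose promoter is shown above, stood at 2.44 against 1.69 FPKM (1.44, 1.15 to 1.81). Slc30a5 and Slc30a7, which supply zinc to the secretory pathway, stood at 6.61 against 5.51 FPKM and at 4.20 against 3.26 FPKM. Slc30a6 stood at 2.96 against 2.99 FPKM. The metallothioneins, whose genes also respond to zinc through MTF1, had ratios whose limits held 1. Mt1 stood at 76.3 against 73.2 FPKM (1.04, 0.97 to 1.12) and Mt2 at 80.5 against 86.7 FPKM (0.93, 0.84 to 1.03).

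Slc39a9 (ZIP9) was the lowest of all members, at 1.53 FPKM in the siRNA-labelled library and 3.04 FPKM in the control, from 958 and 1879 counts. Its ratio was 0.50 (0.43 to 0.59), and 8.46% of its transcript is shared with Erh on the opposite strand. Slc39a7 (ZIP7), which releases zinc from the endoplasmic reticulum, was the most abundant zinc carrier at 67.8 against 81.4 FPKM (0.83, 0.79 to 0.88). It shares 84.2% of its transcript with Gm20427, which overlaps it on the same strand. Slc39a3, Slc39a4 and Slc39a13 were lower by differences of 0.19 to 0.23. On the other side Slc39a6 stood at 10.9 against 8.37 FPKM (1.29, 1.15 to 1.45) and Slc39a1 at 29.5 against 27.04 FPKM.

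**Figure D3:**
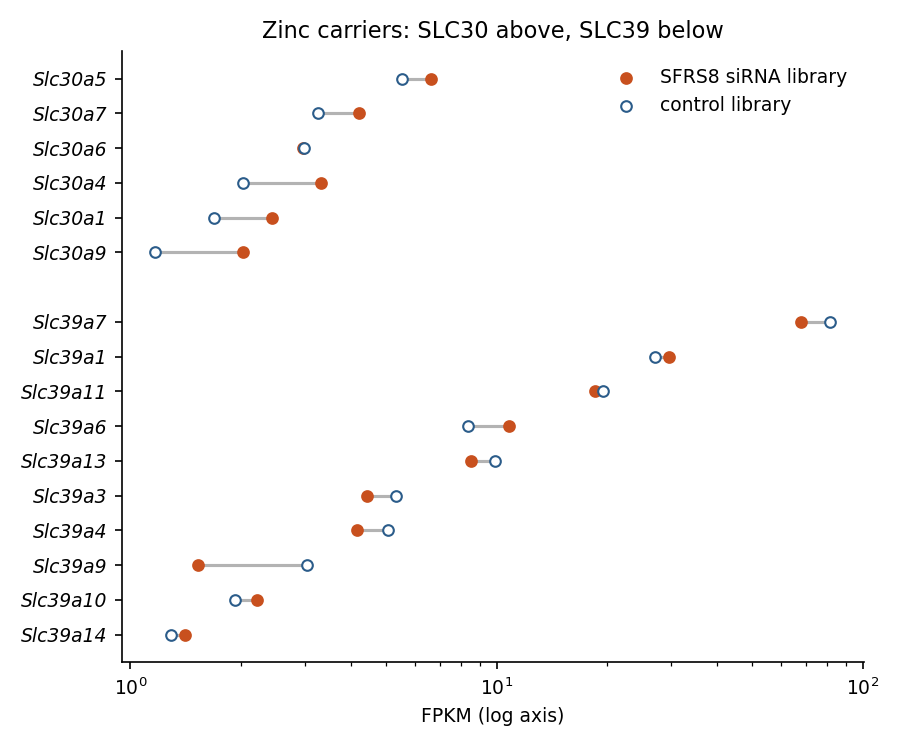
FPKM (log axis) of the 6 expressed SLC30 genes (above) and the 10 expressed SLC39 genes (below), with filled points for the SFRS8 siRNA library and open points for the control library. Filled points lie to the right of open points in 5 of 6 SLC30 genes and in 4 of 10 SLC39 genes, and the widest gap is that of Slc39a9 (1.53 against 3.04 FPKM).

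Other metal carriers lay on both sides. Slc11a1 (NRAMP1), which removes iron and manganese from phagosomes, stood at 32.6 against 34.4 FPKM, and its paralog Slc11a2 (DMT1) at 17.1 against 17.7 FPKM. The heme carrier Slc48a1 stood at 68.8 against 73.0 FPKM. Both copper carriers (family median 0.22) were above the median of all genes, with Slc31a1 at 17.7 against 14.7 FPKM and Slc31a2 at 16.8 against 14.7 FPKM. Slc40a1 (ferroportin), the iron exporter, was under the limit at 0.068 against 0.047 FPKM. Over the whole class of 24 metal carriers, 13 were above 0, with a median of 0.08, or -0.03 relative to all genes. A list of carriers of iron, heme, manganese, zinc and copper gave 12 of 19 measured members above 0, with a median of 0.12. That list left out Slc30a4, Slc39a3, Slc39a4, Slc39a9 and Slc39a11, of which 4 were below 0.

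Amino acid carriers had a median of 0.05, with 17 of 23 above 0 and none past 1.5-fold. Relative to all genes the median was -0.06. Slc38a2 (SNAT2), a sodium-coupled carrier of small neutral amino acids, was the highest, at 7.49 against 5.31 FPKM, from 4063 and 2852 counts (ratio 1.41, 1.28 to 1.55). Slc7a6, which exchanges cationic for neutral amino acids, stood at 16.2 against 13.2 FPKM (1.22, 1.12 to 1.34). The light chain Slc7a5 (LAT1, for large neutral amino acids) stood at 49.4 against 50.7 FPKM, the glutamine carrier Slc1a5 at 41.9 against 41.5 FPKM and the arginine carrier Slc7a1 at 11.2 against 11.7 FPKM. Slc7a11 (xCT), which imports cystine, was low in both libraries at 1.16 against 0.90 FPKM (1.297, 1.07 to 1.58).

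Of 9 measured carriers known as ATF4 targets, 7 were above 0 and none passed 1.5-fold, with a median of 0.05. Of these 9, 3 lay above the median of all genes, and relative to it their median was -0.06. Atf4 mRNA itself stood at 162 FPKM in the siRNA-labelled library and 227 FPKM in the control. Carriers of osmolytes and transmitters (family SLC6) had a median of 0.02 over 6 members. Slc6a12, the betaine and GABA carrier, stood at 61.6 against 62.4 FPKM and its neighbour in the family Slc6a13 at 34.8 against 34.7 FPKM. The taurine carrier Slc6a6 stood at 19.2 against 17.8 FPKM, and the serotonin carrier Slc6a4 at 9.21 against 9.53 FPKM.

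Carriers of sugars and monocarboxylates lay on both sides. Slc37a2, a sugar-phosphate antiporter of the endoplasmic reticulum that is abundant in macrophages, stood at 5.81 FPKM in the siRNA-labelled library and 8.96 FPKM in the control, from 2367 and 3617 counts. Its ratio was 0.65 (0.58 to 0.72), whereas Slc37a4, the glucose-6-phosphate carrier, stood at 7.31 against 5.799 FPKM (1.26, 1.06 to 1.49). The lactate carriers also differed from each other. Slc16a1 (MCT1) stood at 20.2 against 14.6 FPKM (1.39, 1.28 to 1.51) and Slc16a3 (MCT4) at 13.88 against 13.96 FPKM (0.99, 0.91 to 1.08). Their chaperone Bsg (basigin) stood at 456 against 417 FPKM. Of the glucose carriers, Slc2a1 (GLUT1) stood at 48.2 against 55.4 FPKM (0.87, 0.82 to 0.92) and Slc2a3 (GLUT3) at 7.11 against 5.98 FPKM (1.19, 1.07 to 1.32). Slc2a6, a lysosomal hexose carrier of macrophages, stood at 15.997 against 18.5 FPKM. Of 8 measured members in a list of hexose and monocarboxylate carriers of glycolytic cells 4 were above 0.

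Nucleotide sugar carriers of family SLC35, which feed glycosylation in the Golgi and endoplasmic reticulum, split within the family. Of 16 members 7 were above 0, with a median of -0.07 and of 0.02 after adjustment for GC content. Slc35a3, the UDP-N-acetylglucosamine carrier, stood at 3.06 against 1.86 FPKM (ratio 1.64, 1.42 to 1.90). Slc35a1, the CMP-sialic acid carrier, stood at 3.17 against 1.95 FPKM (1.61, 1.18 to 2.21). Their paralog Slc35a2, the UDP-galactose carrier, stood at 2.80 against 3.59 FPKM (0.78, 0.65 to 0.94). Transcripts of these 3 genes have GC contents of 38.8%, 44.2% and 54.4%. Slc35e4, an SLC35 gene of unassigned substrate and the most abundant of the family, stood at 47.2 against 51.9 FPKM. The nucleoside carrier Slc29a1 (ENT1) stood at 17.7 against 21.5 FPKM (0.82, 0.76 to 0.89).

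Carriers of endosomes and lysosomes had a median of 0.06 over 13 measured members of a list of 19, with 7 above 0. The histidine and peptide carriers that support signalling of endosomal toll-like receptors stood at 14.1 against 15.9 FPKM (Slc15a3) and at 8.83 against 8.41 FPKM (Slc15a4). Slc15a3 shares 31.7% of its transcript with Tmem132a on the opposite strand. The sialic acid exporter Slc17a5 stood at 12.9 against 11.3 FPKM. Slc29a3 (ENT3), the lysosomal nucleoside carrier, was under the limit with 0.22 FPKM in the siRNA-labelled library and 0.98 FPKM in the control. Its 78 and 348 counts gave a ratio of 0.22 (0.13 to 0.37), lower than that of any member.

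Carriers of inorganic ions had a median of 0.00 over 18 members, 9 of them above 0. The anion exchanger Slc4a2 (AE2), used by osteoclasts to remove bicarbonate, stood at 1.94 against 2.10 FPKM. Slc9b2 (NHA2), a sodium/proton exchanger that osteoclasts induce, stood at 2.26 against 2.76 FPKM. The potassium chloride cotransporter Slc12a4 (KCC1) stood at 12.9 against 14.8 FPKM. Of 12 measured carriers of acid handling and bone resorption, 5 were above 0, with a median of -0.02. Carriers of vitamins, lipids, peptides and organic ions had a median of 0.02. Among these were the folate carrier Slc19a1 at 19.5 against 21.4 FPKM, the choline carrier Slc44a1 at 12.3 against 9.84 FPKM and Slc22a18, an organic cation carrier, at 0.79 against 1.40 FPKM from 83 and 145 counts.

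**Figure D4:**
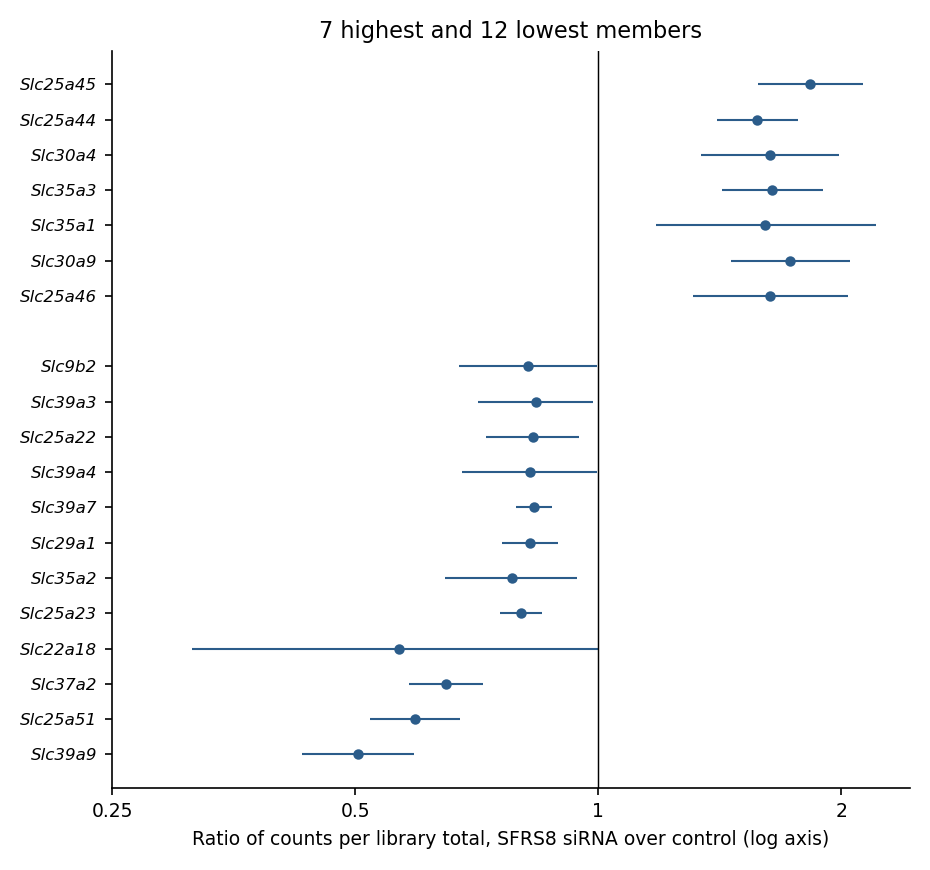
Ratio of counts per library total, SFRS8 siRNA over control (log axis), for the 7 members with the highest and the 12 with the lowest differences of log2(FPKM + 1), with 95% exact limits for counting error. Ratios run down to 0.50 for Slc39a9 and up to 1.83 for Slc25a45, and the limits of Slc22a18 (0.31 to 0.998) are the widest of the lower members.

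Across members the difference followed the base composition of the transcript. Spearman's rho between the difference and the GC content of the longest transcript was -0.58 over the 154 members and -0.46 over all 10214 genes. These points share 2 libraries and the correlation is a description. Among the 10 members of at most 42.1% GC, in the lowest of 10 bins of equal gene number, 9 were above 0 and the median was 0.29, against 0.34 over all genes of the bin. Among the 14 members of at least 57.9% GC, 3 were above 0 and the median was -0.09, against -0.03. Of the 29 members at least 1.2-fold higher, 24 had a GC content under 50%, as did 64 of all 154. After adjustment for GC content the member median was 0.08, against 0.11 over all genes, and 111 members (72.1%) were above 0, against 70.4% of all genes.

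Among the members with the highest adjusted differences were the mitochondrial carriers Slc25a45 (0.88), Slc25a44 (0.69) and Slc25a33 (0.47). In all, 16 of 154 members were at least 1.2-fold higher after the adjustment (a smaller share than the 21.9% of all genes), 7 of them under 50% GC. At least 1.2-fold lower were 5 of 154 members (a smaller share than the 6.53% of all genes). These were Slc39a9 (-0.74), Slc25a51 (-0.70), Slc37a2 (-0.54), Slc9b2 (-0.39) and Slc22a18 (-0.29). Slc30a4 and Slc35a3, at 41.2% and 38.8% GC, had adjusted differences of 0.29 and 0.26, against unadjusted differences of 0.51 and 0.51.

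**Figure D5:**
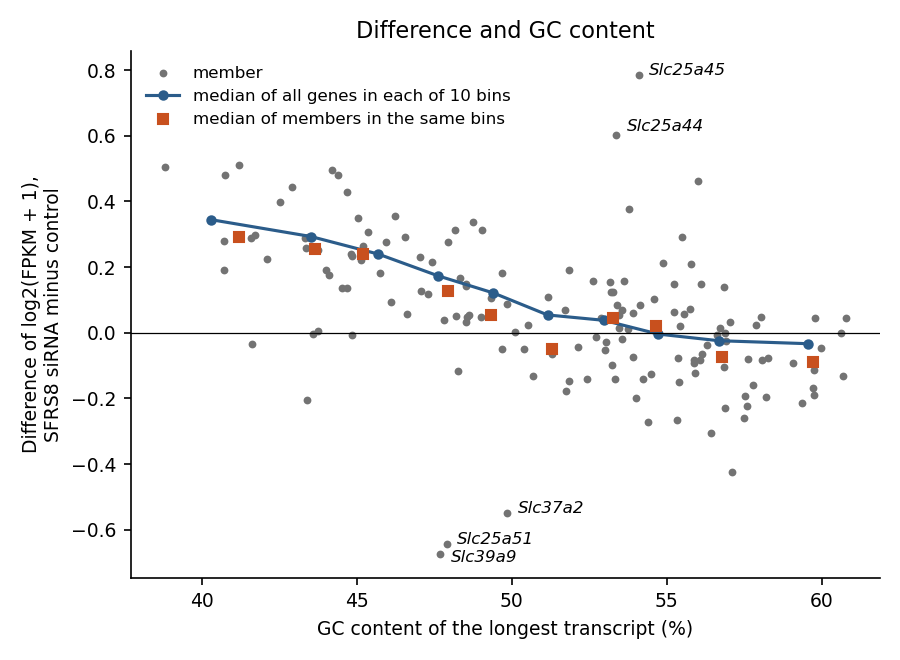
Difference of log2(FPKM + 1), SFRS8 siRNA minus control, against the GC content of the longest transcript (percent) for the 154 members (grey), with medians of all genes (blue line) and of members (orange squares) in 10 bins of equal gene number. Member medians go from 0.29 in the lowest bin to -0.09 in the highest, and Slc25a45, Slc25a44, Slc39a9, Slc25a51 and Slc37a2 lie far from them.

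By the location terms in the deposited table, members of the inner mitochondrial membrane (31 genes) had a median of 0.07 against 0.05 for the 267 other genes located there. The 68 plasma membrane members had a median of 0.07 against 0.11 for 955 other genes. The 12 Golgi membrane members had a median of -0.02 against 0.12, and the 8 lysosomal membrane members of -0.03 against 0.08. The 9 endoplasmic reticulum membrane members had a median of -0.03 against 0.11 for 408 other genes. After adjustment for GC content the Golgi medians were 0.03 and 0.11, the lysosomal medians 0.05 and 0.10, and the endoplasmic reticulum medians 0.02 and 0.09.

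Partner proteins, ion pumps and carriers outside the naming rule gave 15 of 22 measured genes above 0, with a median of 0.06 and 1 gene past 1.5-fold. That gene was Slc9a3r2 (NHERF2), a scaffold for sodium/proton exchangers, at 17.6 against 11.1 FPKM. The sodium pump, which maintains the gradient that many SLC proteins use, had its beta chain Atp1b3 at 101 against 70.3 FPKM. Of the subunits of the mitochondrial pyruvate carrier, Mpc1 stood at 5.19 against 3.55 FPKM and Mpc2 at 7.01 against 6.79 FPKM. A list of regulators of carrier genes and metal-storage genes gave 9 of 14 above 0, 6 of them above the median of all genes. The highest were Hif1a at 11.5 against 7.91 FPKM and Nfe2l2 (NRF2) at 12.9 against 9.004 FPKM. The lowest were Atf4, given above, and the ferritin chains Fth1 at 2430 against 2793 FPKM and Ftl1 at 9851 against 10847 FPKM.

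Some SLC genes that mark other tissues were abundant in both libraries and others were near 0. Of 6 genes typical of heart and muscle, Slc25a4 (given above) and the fatty acid carrier Slc27a1, at 28.9 against 29.5 FPKM, were the highest. Slc2a4 (GLUT4) stood at 1.25 against 1.09 FPKM, Slc8a1 (the heart sodium/calcium exchanger) at 0.079 against 0.052 FPKM and Slc4a3 at 0.083 against 0.043 FPKM. Slc25a34 had 23 counts in the siRNA-labelled library and 0 in the control. Of 7 brain genes none reached 1 FPKM, and together they held 494 against 373 counts. The 4 listed kidney genes and the listed liver gene were at 0 in both libraries.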

How the data were processed

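Paired-end reads of poly(A) RNA were made from RAW264.7 cells in 2 libraries, 1 per treatment label, per the labels' protocols. HISAT2 2.0 and StringTie 1.3.0 are listed as tools in the notes that the submitters gave on processing. Genome build, annotation and strandedness: not given in the sources used here. The authors deposited FPKM, which scale each gene to its transcript length and to library depth. They also deposited a count column for each library, which holds whole numbers, but 45.1% and 42.7% of those from 1 to 20 were multiples of 4. They were therefore treated as estimated counts from coverage, about 4 per read pair, and divided by 4 for the exact Clopper-Pearson limits of ratios. Reads can be copies of the same molecule, and the limits cover counting error only. Unmatched value columns numbered 0.

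Of the members, 131 of 154 had the same coordinates in GENCODE vM21 (GRCm38), which holds all 24034 identifiers. GC content and length were taken from the longest transcript, and shared sequence from blastn 2.17.0 (at least 98% identity over 100 bases). The GC adjustment was a lowess fit of span 0.3 over all genes. Members and lists were chosen with earlier results of these data known. Substrate classes follow the SLC family numbers. The genes named were the 12 highest and 12 lowest members, the 10 most abundant, the highest and lowest of families with at least 5 members, and members of the lists, and the text gives a selection. Others, such as Slc35e4, Slc44a1, Slc19a1, Slc6a6, Slc6a13 and the neighbours of the level limit, were named after their values were seen. Some members that the rule names are not reported here. The procedure was tested on simulated data. Versions were statsmodels 0.14.6 for lowess, scipy 1.17.1 for exact limits, pandas 2.3.3, numpy 2.4.6, Python 3.11.15 and matplotlib 3.10.9.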

Additional observations from a re-analysis of the deposited data

How the results depend on the processing

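No member was at least 2-fold higher or lower under any pseudocount, level limit, scaling or adjustment tried, with settings changed singly. The lower level limit tried let in Slc29a3 (mean 0.60 FPKM) and Slc25a14 (mean 0.74 FPKM), whose ratios of counts were 0.22 and 2.06. With the pseudocount of 1 their differences were -0.70, which is past 1.5-fold lower, and 0.44. Percentages in brackets in this part are shares of all genes and not of members. At a limit of 1.5-fold in place of 2-fold there were 2 higher and 2 lower among 154 members. From these, the pseudocount of 0.1 gave 7 higher (10.3% of all genes) and 4 lower (3.19%), CPM gave 7 higher (8.51%) and the pseudocount of 5 gave 0 and 0 (1.28% and 1.06%). Centring on all genes left 1 higher (2.82%), a mean of at least 5 FPKM left 1 lower (2.12%), and leaving out the 17 members that share or overlap sequence left 1 lower (2.18%). Under that last setting Slc25a51 was left out. The member median of 0.05 was -0.060 when centred, on the other side of 0, and 0.012 among members averaging 5 FPKM or more. Members above 0 were then 60 of 154 and 43 of 82. The share of members under 1.2-fold, an alternative added after the values were seen, was 68.2% and 92.9% at pseudocounts of 0.1 and 5, and 86.4% after GC adjustment. All genes gave 56.1%, 83.8% and 71.5%, so the member share was the higher in each. The amino acid median was -0.064 when centred. The 24 highest and lowest members kept their sign in all 177 values under these alternatives, but most of these signs were fixed in advance. A changed pseudocount, level limit or set of members cannot turn the sign of a member. Only centring, CPM and GC adjustment could do so, and centring only for the higher members. No paired analysis was possible because each group has 1 library. Likewise, differences between cultures cannot be told apart from those between treatments.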
